A study of Homo sapiens with 3 samples.

Results

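The cytosolic ribosomal proteins are the protein parts of the 40S and 60S subunits that translate mRNA outside mitochondria. They were chosen by symbol (RPS for the small subunit, RPL for the large subunit, RPLP for the acidic stalk), with pseudogenes, antisense transcripts and the RPS6 kinases left out. This gave 60 genes with 121 probe sets of their own, out of 19775 genes that had a probe set annotated to 1 gene. The annotation held 85 genes that fit the symbol rule, and the other 25, among them RPL5, RPL10, RPL23, RPL26, RPLP0, RPS27A and RPSA, had no probe set of their own and were not analysed here. Of the 60 genes, 58 had at least 1 probe set above a filter on dim signals (mean log2 signal over the 3 arrays at or above percentile 50, a signal of 56.6) and are called tested below, and 2, RPL3L and RPL39L, did not.

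The arrays measured HCT-116, a cell line from a human colorectal cancer, in which stearoyl-CoA desaturase 1 (SCD1, gene SCD) was blocked by a compound or disrupted by editing. One array held SCD1-WT cells treated with the SCD1 inhibitor T-3764518 for 24 h, at 100 nM by the methods of the study. The second held SCD1-KO cells, made from HCT-116 cells with CRISPR-Cas9 and a pair of guides that removed part of the gene, then cloned by limiting dilution. The labels give neither a vehicle nor a time for these cells, the methods of the study describe DMSO as the vehicle and 24 h for the array experiment, and neither source names the clone. The third held SCD1-WT cells treated with the vehicle DMSO for 24 h, and both comparisons use this same array. With 1 array per group there was no replicate, so no p-value is given, and the disagreement between probe sets of a gene is the only error that the data offer. Because the ratios share the DMSO array, an error on it enters both.

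SCD1 puts a double bond into saturated fatty acids such as stearate and palmitate, giving oleate and palmitoleate for membrane and storage lipids. Ribosomal protein genes are among the most highly expressed genes of growing cells, and each subunit takes in nearly all of its proteins in equal numbers, so their mRNAs are usually held at matched levels. Most of these mRNAs begin with a 5′ terminal oligopyrimidine (TOP) motif, a C followed by a run of C and T, through which the kinase mTORC1 and the RNA-binding protein LARP1 control their translation. Control of that kind acts on translation and on the stability of the mRNA, and an array measures only the amount of mRNA.

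The start sites below, with 15 bases before and 15 from the annotated start, show this motif at members whose values are described further on. They are from RefSeq (GRCh38.p14), run 5′ to 3′ on the gene's strand, and capitals mark the run of C and T that begins with C at the start site.
RPS6 (chr9:19380222-19380251, minus strand): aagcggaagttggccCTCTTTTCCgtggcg
RPS9 (chr19:54200843-54200872, plus strand): gtggcgcttccgcgcCTCTTTCTCagtgac
RPS25 (chr11:119018329-119018358, minus strand): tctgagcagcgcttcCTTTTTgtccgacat
RPS21 (chr20:62387088-62387117, plus strand): ggtgactagctgcttCCTTTCTCTCTCgcg
RPL22 (chr1:6199581-6199610, minus strand): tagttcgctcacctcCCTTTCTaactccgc
RPL22L1 (chr3:170870181-170870210, minus strand): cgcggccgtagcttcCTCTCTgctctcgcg
RPS27 (chr1:153990747-153990776, plus strand): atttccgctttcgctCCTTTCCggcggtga
RPS27L (chr15:63157463-63157492, minus strand): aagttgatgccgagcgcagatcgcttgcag
The first 7 have the run and RPS27L, the paralog of RPS27, does not. Of the 52 tested members with a promoter in the RefSeq table, 34 (65.4%) had a C followed by at least 4 C or T exactly at the annotated start, against 4.04% of all 27305 promoters, 5.2% of the tested genes and 5.97% of the mitochondrial ribosomal protein genes. The motif was read on the gene's own strand only, and a start site annotated a few bases off would miss it. Allowing a start within 5 bases gave 42 members (80.8%) and 21.1% of all promoters.

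All 3 arrays had been scaled to the same trimmed mean signal (500.1), and their median signals were 56.7 under T-3764518, 62.4 for SCD1-KO cells and 68.8 with DMSO. The ratio of the 3′ to the 5′ probe set of ACTB, a sign of RNA quality, was 1.36 under T-3764518, 1.54 for SCD1-KO cells and 1.30 with DMSO, and that of GAPDH was 0.927, 1.07 and 0.969 in the same order. Epithelial markers differed in the SCD1-KO cells: EPCAM, a surface protein of epithelial cells, had signals of 17224, 6840 and 16859 on the T-3764518, SCD1-KO and DMSO arrays, and CDH1, or E-cadherin, was 2.78-fold lower than with DMSO, whereas the keratins KRT8, KRT18 and KRT19 were 0.26 to 0.36 higher (log2 ratio). Of the leukocyte, endothelial and fibroblast markers, PTPRC, CDH5 and COL1A2 were below the filter, and of the 4 tested COL1A1 was the brightest, at 1409, 1090 and 1128. The SCD probe sets could not be placed relative to the deleted part, so they do not check the knockout.

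With T-3764518 the ribosomal protein mRNAs stayed close to their DMSO levels. The median log2 ratio over the 58 genes was -0.013, against -0.087 over all 12321 genes tested, and 30 of the 58 were below 0 (51.7%), against 59% of all genes. No member was 2-fold higher (2.18% of all genes were) or 2-fold lower (3.3% were). At 1.2-fold, 1 member was higher (18.4% of all genes) and 3 were lower (32.5% of all genes). All 4 were measured, wholly or in part, by dim probe sets. They were RPL10L, RPL36A, RPS28 and RPS29. As RNA came from whole cultures, fewer expressing cells and less mRNA per cell cannot be told apart in any of these ratios. With each array scaled to 1 median signal instead, the median was 0.27 for the members and 0.19 for all genes, so closeness to DMSO holds for the arrays as deposited, and 14 of the 58 were below the median of all genes under either scaling, against 30 after quantile normalization and 37 after lowess correction.

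In SCD1-KO cells the members lay lower as a group, by a small amount, on the arrays as deposited and relative to all genes, but not relative to 0 when each array was scaled to 1 median signal. As deposited, the median log2 ratio over the 58 genes was -0.13, against -0.011 over all genes, and 48 of the 58 were below 0 (82.8%), against 51.1% of all genes. The SCD1-KO array had the lowest of the 3 signals for 42 members (72.4%), against 32% of all genes. After scaling to 1 median the medians were 0.0089 for the members and 0.13 for all genes, and 47 of the 58 members were below the median of all genes, as they were before. The size was modest: no member was 2-fold higher (3.12% of all genes) or 2-fold lower (3.93% of all genes). At 1.2-fold, 16 members were lower (27.6%), which is no more than the 27.9% of all genes, and 3 were higher (25.3% of all genes). The members differed from all genes in the share below 0 and in having few 1.2-fold higher genes (5.17%), while the share of 1.2-fold lower genes was near that of all genes. Few higher genes were not particular to the knockout or to the members. Under T-3764518 1.72% of the members were 1.2-fold higher (18.4% of all genes), and in SCD1-KO cells 6 of the 75 tested mitochondrial ribosomal protein genes were. The 3 higher members all lay outside the brightest quintile of signal. EPCAM, CDH1 and the ACTB ratio differed on the same array, and their part in the result was not tested.

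**Figure D1:**
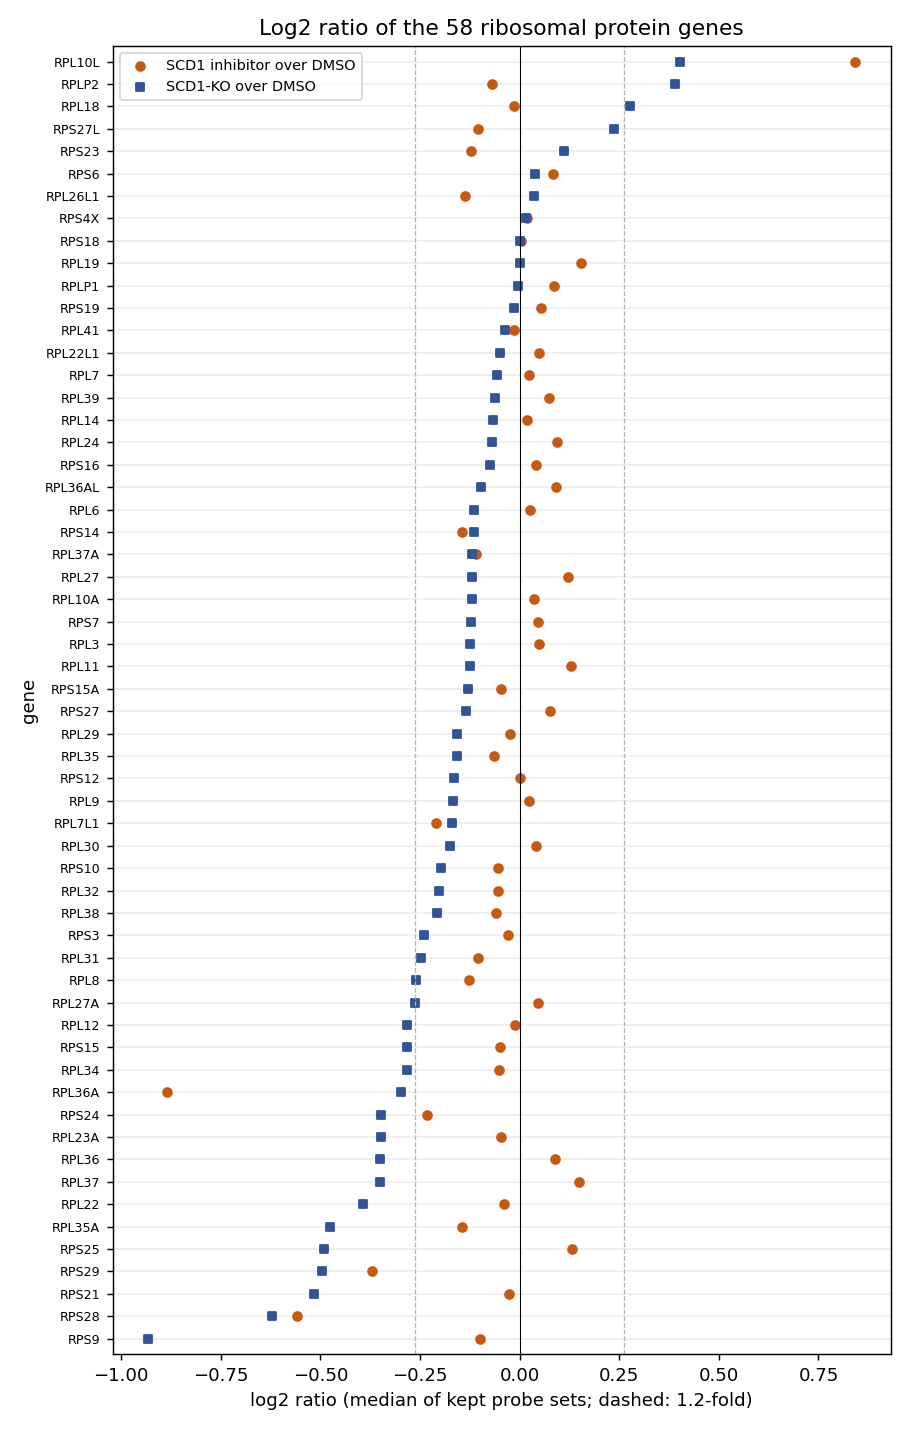
Log2 ratio (x axis) of each of the 58 tested ribosomal protein genes (rows, ordered by the SCD1-KO ratio), as the median of the gene's kept probe sets, with circles for the SCD1 inhibitor T-3764518 over DMSO and squares for SCD1-KO over DMSO. On the arrays as deposited most squares lie left of 0 (48 of 58, though the median is 0.0089 when each array is scaled to 1 median), the circles lie on both sides of it (30 of 58 left), and dashed lines mark 1.2-fold.

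The members agreed most closely at high signal. Among probe sets at or above percentile 98 of mean signal (7805 and more, a bound chosen after seeing the data), 75 probe sets of 53 members gave T-3764518 ratios between -0.21 and 0.17 with an SD of 0.077, while the 972 other probe sets had an SD of 0.315. The signals were not matched in this, since 755 of the others but only 7 of the members lay below 20000, and at higher signals the ratios of all probe sets were narrow too. The medians there were 0.0030 for the members and -0.0078 for the others. The same 75 probe sets had a median of -0.16 in SCD1-KO cells, against -0.022 for the others, and 66 of them were below 0 (88%), against 54.0% of the others. The SCD1-KO signal was below the T-3764518 signal for 70 of the 75 (93.3%), a comparison that does not use the DMSO array, against 55.2% of the others. By genes, the 52 members in the brightest quintile of signal had medians of 0.0019 and -0.15, against -0.018 and -0.017 for all 2464 genes of that quintile. A further 47 bright probe sets carry a ribosomal protein symbol beside another symbol and cannot be assigned to 1 gene. Their SCD1-KO median was -0.18, with 45 below 0 (95.7%).

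Among members of middling signal (percentiles 50 to 90) the picture was looser. The 28 probe sets there had an SD of 0.553 under T-3764518 and 0.559 for SCD1-KO cells, and medians of -0.20 and -0.039. Those of all probe sets in that range were -0.11 and -0.0042. Within the brightest band, the SCD1-KO median of members was -0.20 for 14 probe sets with signals of 20000 to 30000 (all 14 below 0), -0.17 for 29 between 30000 and 40000 (27 below 0) and -0.058 for 25 at 40000 and above (19 below 0). Other probe sets had medians of -0.022 (52.4% below 0), -0.051 (66.7%) and 0.069 (22.6%) in these bands, so those between 30000 and 40000 also lay mostly below 0. The highest signal on any array was 55606, and whether the narrower ratios at the top come from the scale of the scanner was not tested.

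**Figure D2:**
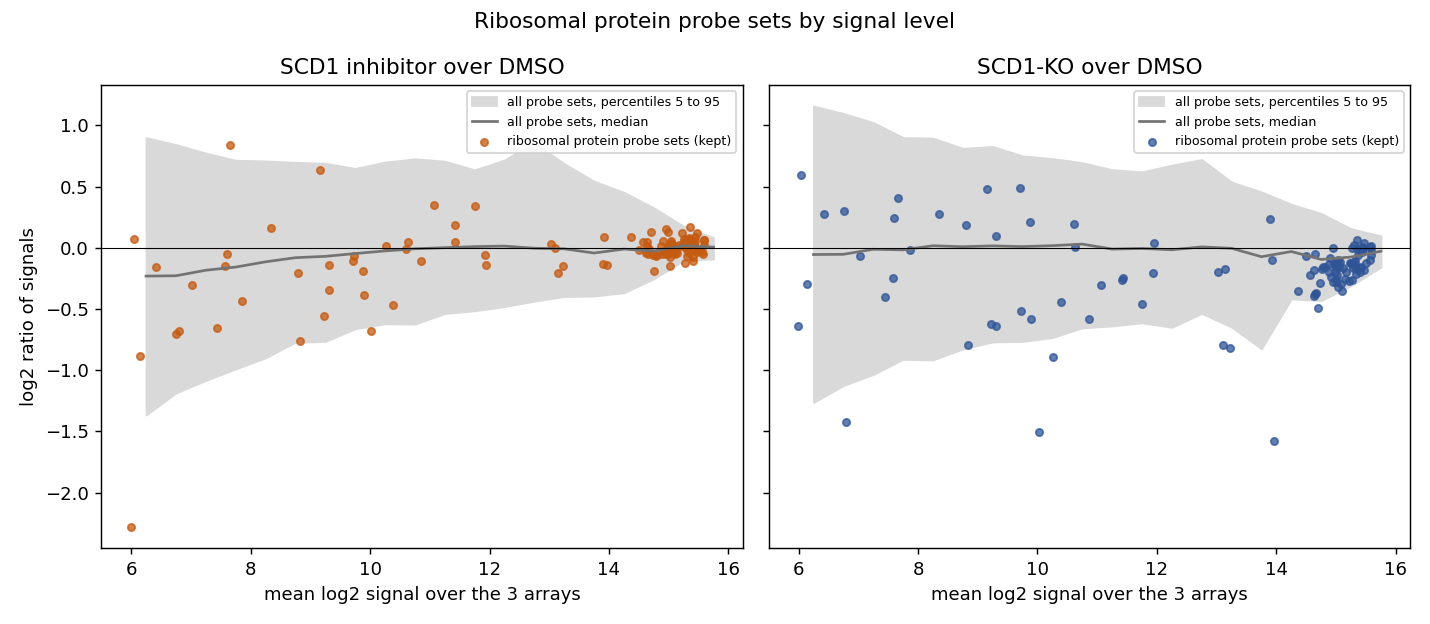
Log2 ratio (y axis) of each kept ribosomal protein probe set against its mean log2 signal over the 3 arrays (x axis), for the SCD1 inhibitor T-3764518 over DMSO on the left and SCD1-KO over DMSO on the right. The grey band holds percentiles 5 to 95 of all probe sets and the grey line their median; at the bright end the points on the left centre on 0 and most of those on the right lie below it (66 of 75 at percentile 98 and above).

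Both subunits shared the pattern. With T-3764518 the 21 small subunit genes had a median of -0.029 (12 below 0) and the 37 large subunit genes one of 0.018 (18 below 0). In SCD1-KO cells the medians were -0.13 for the small subunit (16 of 21 below 0, 7 at least 1.2-fold lower) and -0.13 for the large subunit (32 of 37 below 0, 9 at least 1.2-fold lower). Of all genes 51.1% were below 0 and 27.9% at least 1.2-fold lower, so the 1.2-fold counts were near the share of all genes. For genes with several kept probe sets the agreement between them could be read. Of these 29 genes, all probe sets were below 0 in SCD1-KO cells for 17, all above 0 for 4 and of both signs for 8, whereas under T-3764518 the probe sets of 18 genes had both signs. The pooled SD between probe sets of a member was 0.353 under T-3764518 and 0.321 for SCD1-KO cells, and 0.060 and 0.229 among bright probe sets only (16 genes). A smaller difference in a single gene was within this disagreement.

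The small subunit held the lowest SCD1-KO gene values. By the brightest probe set of each tested gene RPS25 was lowest (-0.49), and the large subunit genes RPL22 (-0.37), RPL36 and RPL23A (each -0.35) came next. RPS9, a protein of the 40S body near the path by which mRNA enters, had 1 probe set with signals of 21558, 7957 and 23777 on the T-3764518, SCD1-KO and DMSO arrays, and a second with 28423, 24248 and 29533. The SCD1-KO array was lowest in both, by log2 ratios of -1.58 and -0.28, and the ID of the first carries the _x mark, which means that some of its probes may bind other sequences. The gene value of -0.93 is the middle of these unequal values. RPS25, which certain viral internal ribosome entry sites need to recruit the 40S subunit, had a single bright probe set with signals of 31669, 20549 and 28889. It was 1.41-fold lower in SCD1-KO cells (log2 ratio -0.49), and 0.13 higher under T-3764518.

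RPS21 showed how much a dim probe set can weigh. Its bright probe set had signals of 40693, 38579 and 42620 on the T-3764518, SCD1-KO and DMSO arrays, a SCD1-KO log2 ratio of -0.14. Its dim one had 1518, 811 and 1502, a ratio of -0.89. Both were lowest in SCD1-KO cells, and the gene value was -0.52. RPS28 and RPS29, small proteins of the 40S head, had low gene values in both comparisons, -0.56 under T-3764518 and -0.62 for SCD1-KO cells for RPS28, and -0.37 and -0.49 for RPS29. The bright probe set of RPS29 had signals of 38802, 33395 and 38236, so on it the T-3764518 array was level with DMSO (log2 ratio 0.021) and the SCD1-KO array was lower (-0.20). The bright probe set of RPS28 had 26499, 26738 and 30144, with both below DMSO by similar amounts (-0.19 and -0.17).

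RPS24 and RPS14 are small subunit proteins needed for 18S rRNA processing, and the gene for RPS24 is mutated in some families with Diamond-Blackfan anaemia. The bright probe set of RPS24 had signals of 34811, 29091 and 34708 on the T-3764518, SCD1-KO and DMSO arrays, lower only in SCD1-KO cells (log2 ratio -0.25). Its dim probe set had 1198, 1218 and 1656, lower in both. The gene values of RPS14 were close together, -0.14 under T-3764518 and -0.11 for SCD1-KO cells, but its probe sets differed. The bright one had 41618, 38125 and 41273, level with DMSO under T-3764518 (log2 ratio 0.012) and lower in SCD1-KO cells (-0.11). The T-3764518 gene value of RPS14 is that of a dim probe set, with 189, 177 and 209.

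RPS6, the 40S protein that S6 kinases phosphorylate downstream of mTORC1, did not join the shift. Its 3 probe sets had signals of 42578, 47693 and 48811 under T-3764518, 41970, 45036 and 46509 for SCD1-KO cells, and 40178, 43870 and 49847 with DMSO. The probe sets disagreed in sign in both comparisons, and the gene values were 0.084 under T-3764518 and 0.038 for SCD1-KO cells. RPS23, a protein of the decoding centre, had signals of 47385, 49481 and 49157 on its bright probe set, again with the SCD1-KO array level with DMSO (log2 ratio 0.0095). RPS18 was flat as well, at 39481, 39458 and 39400. RPS4X had 45270, 43982 and 43670 on its brighter probe set and gene values of 0.019 and 0.016.

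In the large subunit RPL22 was the member with the most probe sets on 1 side. This RNA-binding protein of the 60S surface is not essential for protein synthesis, and RPL22L1 can take its place. The 5 RPL22 probe sets had signals of 10539, 10814, 27143, 27483 and 28267 under T-3764518, 6087, 6798, 21249, 21887 and 21984 for SCD1-KO cells, and 10558, 11995, 27906, 28388 and 28389 with DMSO. All 5 were lowest in SCD1-KO cells, with log2 ratios from -0.82 to -0.37, and all 5 lay within 0.15 of DMSO under T-3764518. The gene was 1.31-fold lower in SCD1-KO cells. The 2 probe sets with the larger difference (-0.79 and -0.82) are those whose IDs lack the _x mark of possible cross-hybridisation. They are also the 2 dimmest of the 5, so the mark and the signal level cannot be told apart. RPL22L1 had signals of 26489, 24717 and 25589, differing from DMSO by 0.050 and -0.050, so its mRNA was not higher where that of RPL22 was lower.

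Other large subunit members were lower in SCD1-KO cells by 1.2-fold or more. RPL36 had signals of 23770, 17528 and 22332 on the T-3764518, SCD1-KO and DMSO arrays. RPL23A, which lines the outlet of the peptide tunnel and contacts the signal recognition particle, had 37257, 30227 and 38487. Both were lowest in SCD1-KO cells, each with a log2 ratio of -0.35, while under T-3764518 the ratios were 0.090 and -0.047. RPL37 had a bright probe set with 37668, 32404 and 38748, and dimmer ones with 4500, 2587 and 3556 and with 2700, 1717 and 2113. These 3 were lowest in SCD1-KO cells, and under T-3764518 the 2 dimmer of them were higher than DMSO and the bright one was not. The dimmest probe set had 141, 168 and 222 and was lowest under T-3764518 (log2 ratio -0.65). RPL35A, another Diamond-Blackfan anaemia gene, was 1.39-fold lower in SCD1-KO cells as a gene value, with a ratio of -0.32 on one bright probe set and -0.10 on the other. The gene value rests in part on dimmer probe sets, both at -0.64, with signals of 687, 487 and 758 and of 25.7, 80.2 and 125. By the brightest probe set it was under 1.2-fold.

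**Figure D3:**
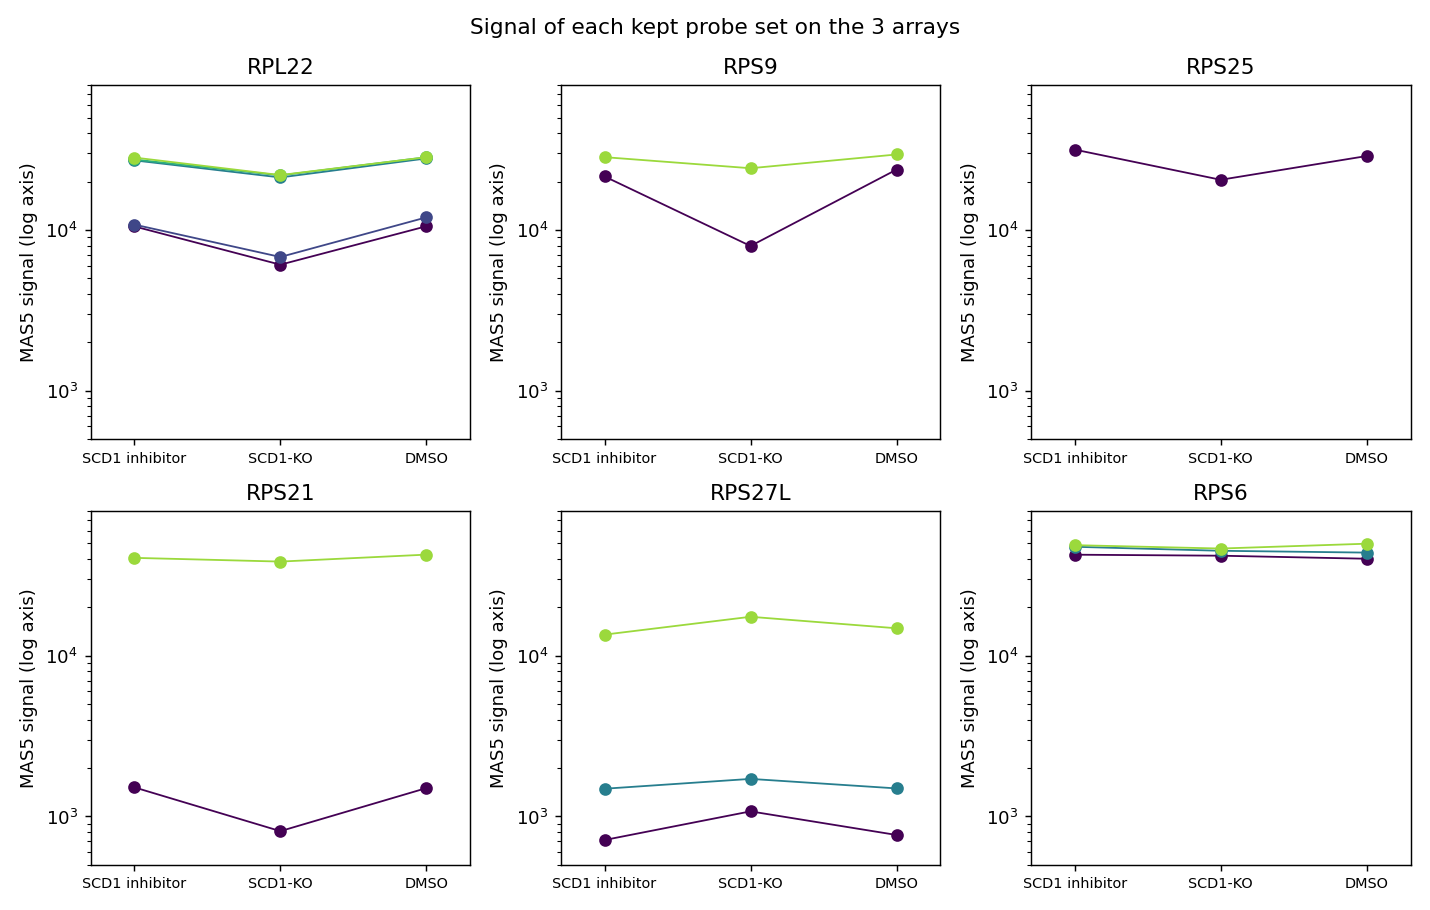
MAS5 signal (y axis, log scale) of each kept probe set of 6 ribosomal protein genes on the SCD1 inhibitor T-3764518, SCD1-KO and DMSO arrays (x axis), with 1 line per probe set and 1 array per group. RPL22, RPS9, RPS25 and RPS21 are lowest on the SCD1-KO array in every probe set, RPS27L is highest there in every probe set, and RPS6 differs little.

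A few large subunit genes were higher under T-3764518, none of them by 1.2-fold except RPL10L. RPL19 had signals of 34029, 30568 and 30558 on the T-3764518, SCD1-KO and DMSO arrays. RPL27 had 41669, 35231 and 38295. RPL11, which with RPL5 carries the 5S rRNA into the 60S subunit and which can bind the p53 regulator MDM2 when ribosome assembly fails, had 35576, 29842 and 32553. RPL24 had 45166, 40001 and 40175 on its brighter probe set and a gene value of 0.093 under T-3764518. In RPL19, RPL27 and RPL11 the T-3764518 array was highest, by log2 ratios of 0.16, 0.12 and 0.13 over DMSO, while in SCD1-KO cells RPL19 was at the DMSO level (0.00051) and RPL27 and RPL11 were lower (-0.12 and -0.13).

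The acidic stalk, which recruits the elongation factors to the ribosome, was seen through RPLP1 and RPLP2. RPLP1 had signals of 46430, 43638 and 43748 on the T-3764518, SCD1-KO and DMSO arrays, level with DMSO in SCD1-KO cells (log2 ratio -0.0037) and 0.086 higher under T-3764518. RPLP2 was measured only by dim probe sets, with 387, 508 and 447 on the brighter of them, and its gene values of -0.068 under T-3764518 and 0.39 for SCD1-KO cells rest on these. RPL18 was likewise 0.28 in SCD1-KO cells as a gene value, but its bright probe set, with 33456, 29387 and 33770, had a ratio of -0.20. Neither gene had a bright probe set with a higher signal on the SCD1-KO array.

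Among the paralogs RPS27L stood opposite to its parent. RPS27L, which p53 can induce, had signals of 714, 1488 and 13545 under T-3764518, 1076, 1714 and 17492 for SCD1-KO cells, and 767, 1495 and 14836 with DMSO. All 3 probe sets were highest in SCD1-KO cells, with log2 ratios of 0.49, 0.20 and 0.24, and the gene was 1.18-fold higher. RPS27 had 41877, 36183 and 39721 on its only kept probe set, a SCD1-KO ratio of -0.13. The 6 parents that were tested were all below 0 in SCD1-KO cells (median -0.13), against 51.1% of all genes, and the 6 paralogs had a median of -0.0064. These were not 6 pairs: RPL10L and RPL26L1 were tested without their parents, and RPL3 and RPL39 without their paralogs. Of the paralogs tested beside their parent only RPS27L was above 0, and RPL7L1 (-0.17) was lower than RPL7 (-0.058). Without probe sets that carry the _x mark RPL7, 1 of these parents, was at 0.30 in SCD1-KO cells. That value is from 1 dim probe set, with signals of 72.7, 146 and 119 on the T-3764518, SCD1-KO and DMSO arrays. The bright RPL7 probe sets, which carry the mark, were at -0.11 and -0.058.

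RPL36AL had signals of 16535, 14527 and 15520 on the T-3764518, SCD1-KO and DMSO arrays, differing from DMSO by 0.091 and -0.095, and RPL26L1 had 3673, 4143 and 4038, differing by -0.14 and 0.037. RPL7L1, a factor of large subunit assembly, was lower in both, at 8536, 8778 and 9870. Its parent RPL7 had 50248, 47521 and 49454 on its brightest probe set. RPL36A, the parent of RPL36AL, was measured only by a dim probe set, with 50.4, 75.6 and 93.0. RPL10L, a testis form of RPL10, had 272, 200 and 152 and the highest gene value in both comparisons (0.84 and 0.40), at a signal where all probe sets spread widely. RPL3L, a muscle form of RPL3, had 2.60, 2.38 and 24.8, and RPL39L had 7.90, 28.7 and 9.20, both too dim for a ratio, while their parents RPL3 (41039, 36363 and 39641) and RPL39 (44231, 40221 and 41988) were bright.

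Other groups of members by role, which are parts of the same 58 genes, lay below 0 in SCD1-KO cells on the arrays as deposited, as the whole did. The stalk pair did not (median 0.19, 1 of 2 below 0), but its median rests on the dim probe sets of RPLP2. With each array scaled to 1 median the whole was at 0.0089, and the groups were not computed. The 6 proteins around the exit of the peptide tunnel that were tested had medians of -0.043 under T-3764518 and -0.20 for SCD1-KO cells. The 12 tested genes of Diamond-Blackfan anaemia, out of 17 listed, had medians of -0.034 and -0.15. In the knockout 11 of them were below 0, against 51.1% of all genes. There 4 were lower by 1.2-fold or more, a share near the 27.9% of all genes. Members with the pyrimidine run exactly at the annotated start (34 genes) had medians of -0.018 and -0.16, and the 18 without had 0.024 and -0.12. On the arrays as deposited members of both kinds thus lay lower in SCD1-KO cells. FAU, a ribosomal protein outside the symbol rule, had signals of 30743, 29427 and 29330 on the T-3764518, SCD1-KO and DMSO arrays, level with DMSO in SCD1-KO cells. RACK1, also outside it, had no probe set of its own.

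Mitochondrial ribosomal proteins, encoded in the nucleus for the separate ribosome of mitochondria, had medians below 0 in both comparisons on the arrays as deposited. The 75 tested genes had medians of -0.13 under T-3764518 and -0.093 for SCD1-KO cells, against -0.087 and -0.011 for all genes. Of the 75, 54 and 47 were below 0, against 59% and 51.1% of all genes. Their medians under other scalings were not computed. With each array scaled to 1 median those of all genes were 0.19 and 0.13, so the sign relative to 0 holds for the arrays as deposited. At 1.2-fold 20 were lower and 2 higher under T-3764518, and 21 were lower and 6 higher in SCD1-KO cells. Of all genes 32.5% were lower and 18.4% higher under T-3764518, and 27.9% lower and 25.3% higher in SCD1-KO cells, so the lower counts were near or under the shares of all genes. The SDs over genes were 0.22 and 0.26, near those of all 58 cytosolic members (0.20 and 0.23).

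Translation factors and other genes listed for TOP mRNAs had medians near those of the cytosolic ribosomal proteins. The motif was not counted in this list. The 13 tested, out of 15 listed, had medians of 0.014 under T-3764518 and -0.088 for SCD1-KO cells. The SCD1-KO median was also near that of the mitochondrial ribosomal proteins (-0.093). In the knockout 10 were below 0, against 51.1% of all genes, and 4 were lower by 1.2-fold or more, a share near the 27.9% of all genes. HNRNPA1, an RNA-binding protein, was at -0.20 and 0.029. The lowest was EIF3H, a subunit of the initiation factor eIF3, at -0.34 and -0.81, and EIF4B, a helper of the initiation helicase, was at 0.033 and -0.53. Factors of cap-dependent initiation under mTORC1 (8 tested) had medians of -0.081 and 0.011. Among them the cap-binding protein EIF4E was at -0.079 and -0.48, its scaffold EIF4G1 at -0.084 and 0.44, and EIF4EBP2, a repressor of EIF4E, at -0.61 and 0.021. The kept probe sets of EIF4EBP2 ran from -0.75 to 0.99 under T-3764518 and from -0.39 to 0.71 for SCD1-KO cells. EEF2K, the kinase that inactivates elongation factor 2, was at -0.55 and -0.29. Its probe sets differed in sign in SCD1-KO cells, at -0.69 on the dimmer and 0.10 on the brighter.

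The machinery that builds ribosomes was not lower with the proteins it assembles. The 33 tested ribosome biogenesis genes, out of 40 listed, had medians of -0.0057 under T-3764518 and 0.083 for SCD1-KO cells, with 7 at least 1.2-fold higher and 2 lower in SCD1-KO cells, where 25.3% of all genes were higher and 27.9% lower, so the higher count was no larger a share than that of all genes. LTV1, a 40S assembly factor, was the lowest under T-3764518 (-0.38) and RPF2, which helps to load the 5S rRNA, the highest (0.32). UTP20, a part of the small subunit processome, was at 0.73 in SCD1-KO cells. FBL, the methyltransferase of box C/D snoRNPs, was the lowest in the knockout (-0.73), with signals of 10460, 7106 and 11755 on the T-3764518, SCD1-KO and DMSO arrays. The 12 genes of RNA polymerase I, which makes the large rRNA precursor, had medians of -0.036 and -0.014. POLR1B, its second largest subunit, was at -0.37 under T-3764518, and TAF1A, of its promoter factor SL1, at 0.51. In the knockout TAF1A was at -0.11 and TAF1C, of the same factor, at 0.45. TAF1D, of that promoter factor SL1, had 1357, 2818 and 1490, the highest SCD1-KO ratio of these lists at 0.92. None of these lists had a gene 2-fold off in either comparison.

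**Figure D4:**
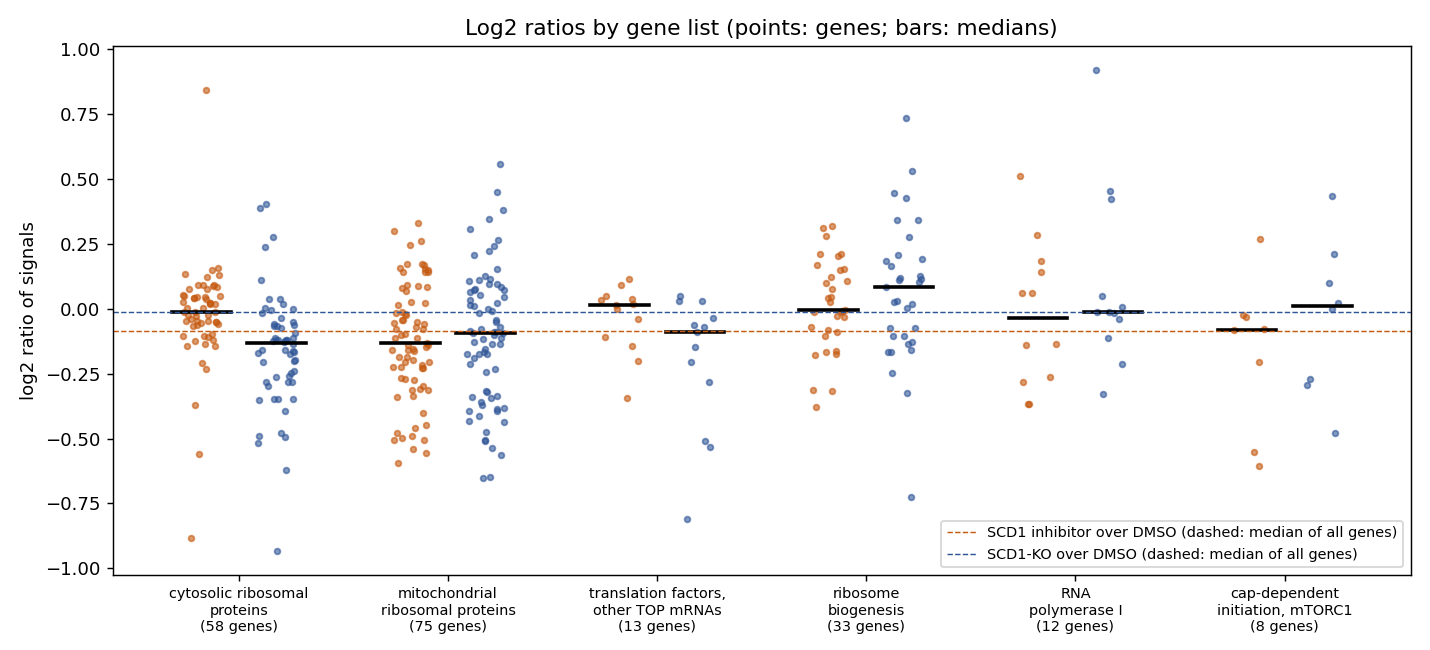
Log2 ratios (y axis) of the tested genes of 6 lists (x axis, with the number of genes), with orange points for the SCD1 inhibitor T-3764518 over DMSO and blue points for SCD1-KO over DMSO; black bars are list medians and dashed lines the medians of all 12321 genes. The cytosolic ribosomal proteins have medians of -0.013 and -0.13 (0.27 and 0.0089 with each array scaled to 1 median), and on the arrays as deposited ribosome biogenesis genes lie higher in SCD1-KO cells, at 0.083.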

How the data were processed

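RNA of 3 HCT-116 cultures, 1 per group, was hybridised to Human Genome U133 Plus 2.0 arrays after 3′ amplification of 250 ng total RNA. The authors deposited MAS5 signal intensity values (linear intensity), which carry no detection calls; the SCD1-KO column held more decimals than the others. Of 54675 probe sets, 41091 were annotated to 1 gene, 1801 to several and 11777 to none, and the few control probe sets with a gene symbol were left out. Here log2 signals were subtracted without pseudocount, probe sets below percentile 50 of mean log2 signal were dropped (23192 left), and a gene's ratio was the median of its kept probe sets. Counts used 2-fold and 1.2-fold. No test was possible with 1 array per group; arrays limit precision by their number. Scripts used Python 3.11.15, numpy 2.4.6, pandas 2.3.3, statsmodels 0.14.6 and matplotlib 3.10.9, and were checked on simulated data.

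Members and lists were chosen with earlier results of these data known. The text names RPS6, the stalk and 5S proteins, paralogs with their parents, FAU, RACK1, undetected members, the 8 members highest and 8 lowest in each ratio, and, of other lists, genes 2-fold off or the 2 farthest from 0; RPS18, RPL23A and RPL36, beyond this rule, were chosen after their values were seen. Gene symbols were matched to RefSeq (60 of 60 members). Alternatives were other scalings, filters, an offset, probe set summaries and probe set classes; a filter at percentile 90 was chosen after seeing the data.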

Additional observations from a re-analysis of the deposited data

How the results depend on the processing

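No paired analysis was possible because each group had 1 array. The median log2 ratio of the members under T-3764518 (-0.013) was 0.27 with each array scaled to 1 median and -0.086 without _s_at and _x_at probe sets. In SCD1-KO cells (-0.13) it was -0.064 after quantile normalization, 0.0089 with 1 median and -0.084 after lowess. Scaling to 1 median moved the median of all genes to 0.19 under T-3764518 and 0.13 for SCD1-KO cells, and relative to that median 47 of 58 members were below in SCD1-KO cells (47 as reported, 45 after lowess, 39 after quantile normalization). The direction of the SCD1-KO median relative to 0 thus depends on the scaling. With T-3764518, 2-fold higher members (0) were 1 with 1 median, and lower ones (0) were 2 without filter. Members 1.2-fold higher (1) were 31 with 1 median and 2 without filter, at percentile 75 or without _s_at and _x_at. The 31 go with the rise of the median of all genes to 0.19 under that scaling. The shares of all genes called were not counted under the other settings, so the changed counts cannot be set against them. Those lower (3) were 6 without filter, 1 by brightest probe set, 7 without _s_at and _x_at and 0 at percentile 90. In SCD1-KO cells, 2-fold members (0 each way) were 2 higher and 1 lower without filter. Members 1.2-fold higher (3) were 7 without filter, 0 at percentiles 75 and 90, and 1 by brightest probe set. Those lower (16) were 10 after quantile normalization, by brightest probe set and without _s_at and _x_at, and 6 with 1 median. By brightest probe set and at percentile 90, RPS29 under T-3764518 was 0.021 and RPL18 for SCD1-KO cells was -0.20, each opposite to its gene value. RPS9 in SCD1-KO cells was -0.28 by brightest probe set. The causes were not tested. One array per group and signals near background limit single genes.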
